A study of Mus musculus with 7 samples.

Results

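The 7 mouse genes described here encode the classical machinery of MHC class II antigen presentation: H2-Aa, H2-Ab1, H2-Eb1, Cd74, H2-DMa, H2-DMb1 and Ciita. They were chosen by symbol as the genes that mark antigen-presenting cancer-associated fibroblasts (apCAFs), by a rule that gives names and no measured values, and all 7 of them were found among the 12771 genes counted. The RNA came from cancer-associated fibroblasts (CAFs) of pancreatic tumors in C57BL/6 mice (C57BL/6 J in the study's methods), males aged 8 weeks when 20000 cells of the KPC line were injected into the pancreas. KPC is a mouse pancreatic cancer line. Both groups of cells carried a lentiviral short hairpin RNA: in the shControl group it had no target (3 libraries, replicates 1, 2 and 4), and in the shBrca2 group it was directed against Brca2 (4 libraries, replicates 1 to 4). Tumors were taken 2 to 3 weeks later, and about 10000 live CD45-/CD31-/EpCAM-/PDPN+ cells were sorted per sample. The comparison therefore asks how the class II genes of host fibroblasts, which did not carry the hairpin, differed with the silencing of Brca2 in the cancer cells beside them. Each group rests on 1 hairpin in 1 cancer cell line, and the p-values measure the spread between these 7 libraries, which the study's methods describe as separate mice.

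MHC class II molecules are heterodimers of an alpha and a beta chain that show peptides from the endosome to CD4+ T cells. New dimers assemble on the invariant chain CD74, which blocks the groove until endosomal proteases trim it, and the H2-DM dimer then exchanges the last fragment for a peptide. Dendritic cells, B cells and macrophages make class II constitutively, other cells do so mainly under interferon gamma, and CIITA is the coactivator that switches the genes on together from a shared promoter module, the X and Y boxes. In pancreatic tumors apCAFs are the fibroblasts that carry class II and CD74, and they have been linked to the mesothelium.

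5 of the 7 members lie together on chromosome 17 of GRCm38.p6, the build named for the counts (mm10). H2-Ab1 (34263227 to 34269418), H2-Aa (34282744 to 34287823) and H2-Eb1 (34305867 to 34316674) are neighbors there, with H2-DMa (34119693 to 34139101) and H2-DMb1 (34153191 to 34160229) in the same region. The promoter table from RefSeq held windows for 4 of the 7 members, each reaching from 250 bases before the transcript start to 50 bases after it. Stretches of H2-Aa, H2-Eb1 and H2-DMb1 are shown because they carry, in the same order and at nearly the same spacing, a core of the X box (GNAACT) followed by the Y box (TGATTGG), both in capitals, on the strand of the gene. They come from H2-Aa (chr17:34287855-34287916, minus strand), H2-Eb1 (chr17:34305764-34305824, plus strand) and H2-DMb1 (chr17:34153085-34153146, plus strand).
H2-Aa: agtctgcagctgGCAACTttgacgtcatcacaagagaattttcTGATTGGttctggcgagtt
H2-Eb1: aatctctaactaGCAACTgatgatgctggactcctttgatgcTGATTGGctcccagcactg
H2-DMb1: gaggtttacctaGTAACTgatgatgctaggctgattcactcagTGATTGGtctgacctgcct

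The boxes were 25 bases apart in H2-Aa and H2-DMb1 and 24 bases apart in H2-Eb1. Their first boxes began 81, 94 and 91 bases before the transcript start in that order. Both strands of 32851 promoter windows were searched. GNAACT was found in 42.8% of them, TGATTGG in 7.82%, and the 2 motifs in this order with at most 60 bases between them in 0.469%. On the strand of the gene alone, the pair was found in 0.225% of the windows. Neither of the 2 windows of H2-DMa held the pair. These windows (chr17:34122582-34122881 and chr17:34125268-34125567) lay inside the span given above, so the start of that span was not searched. The motifs were chosen with these sequences in view, the 2 motifs do not overlap, and a match describes letters and not binding.

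The libraries held between 1898679 and 5990579 counts, in overlapping ranges for the groups, and no pair agreed within sampling noise. Brca2 gave 12.9 ± 4.18 normalized counts with shControl tumors (SD, n = 3) and 12.2 ± 2.56 with shBrca2 tumors (n = 4), which says nothing of the knockdown, since the hairpin was in the cancer cells. The label was checked against markers. The sorted cells held the RNA of fibroblasts: Col1a2, a chain of type I collagen, was between 34662 and 46334 normalized counts in every library. Pdpn, the sorting marker, was between 457 and 670. The sort selected for it, so it is no separate check of the label. A normalized count is the raw count divided by the library's size factor, so that libraries of different depth can be compared. These are bulk samples, so that fewer class II-bearing cells and less class II RNA per cell cannot be told apart.

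No difference between the groups was detectable for the classical class II chains, while they varied widely within the shControl group. H2-Aa, the alpha chain of I-A, stood at 267 normalized counts in shControl replicate 1, 280 in replicate 2 and 1311 in replicate 4, while the shBrca2 libraries, in order of replicate, had 425, 808, 805 and 314. All 4 shBrca2 libraries were above shControl replicates 1 and 2 and below replicate 4, so the groups overlapped. The log2 fold change of shBrca2 over shControl was -0.07 ± 0.72 (standard error), with a 95% interval from -1.48 to 1.33 (adjusted p = 0.96, DESeq2 likelihood ratio test with Benjamini-Hochberg adjustment over all genes). Fold changes below are on the same scale, with the standard error after ±. Calls used the thresholds of the study: an adjusted p under 0.1, a log2 fold change beyond 0.5 in either direction and a mean of more than 5 normalized counts.

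H2-Ab1, which encodes the beta chain of I-A, had 483, 607 and 1983 normalized counts in shControl and 996, 1574, 1370 and 1018 in shBrca2 CAFs. As for its partner, shControl replicate 4 was the highest of the 7 libraries and shControl replicates 1 and 2 were the lowest. Its log2 fold change was 0.28 ± 0.56 (95% interval -0.83 to 1.38, DESeq2 adjusted p = 0.89).

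H2-Eb1 encodes the beta chain of the second class II dimer, I-E. C57BL/6 mice lack a working alpha chain for it, so its RNA is made without a complete I-E dimer. It had 225, 238 and 985 normalized counts in shControl and 294, 574, 637 and 284 in shBrca2 CAFs, with shControl replicate 4 again above the rest. The log2 fold change was -0.11 ± 0.68 (95% interval -1.44 to 1.22, DESeq2 adjusted p = 0.95). The intervals of these 3 chains all hold every log2 difference from -0.83 to 1.22.

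Cd74 (chromosome 18, 60803849 to 60812652) encodes the invariant chain, which is also a receptor for the cytokine MIF. It had 278, 779 and 1686 normalized counts in shControl and 939, 1890, 1416 and 873 in shBrca2 CAFs. The highest library was shBrca2 replicate 2, and only shControl replicate 4 kept the groups from separating. Its log2 fold change was 0.48 ± 0.65 (95% interval -0.79 to 1.76, DESeq2 adjusted p = 0.80).

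The H2-DM genes load peptide onto class II and do not present it themselves. H2-DMa, the alpha chain of H2-DM, had 30.8, 56.9 and 111 normalized counts in shControl and 59.4, 122, 95 and 52.9 in shBrca2 CAFs. It was the only one of the 6 well counted members for which a shBrca2 library, replicate 4, was below shControl replicate 2. Its log2 fold change was 0.32 ± 0.42 (95% interval -0.50 to 1.13, DESeq2 adjusted p = 0.79).

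H2-DMb1, the beta chain of H2-DM, was the 1 member of 7 that was called higher, where 3.77% of the 12768 genes tested were called higher, and the 1 member whose groups did not overlap, where 17.1% of all genes did not. It had 94.0, 142 and 181 normalized counts in shControl and 183, 276, 209 and 208 in shBrca2 CAFs, and shControl replicate 4 was only just below shBrca2 replicate 1. Its log2 fold change was 0.67 ± 0.25 (95% interval 0.17 to 1.16, DESeq2 adjusted p = 0.0988). The call was close to the threshold and was kept under 3 of 12 alternatives: adjusted p was 0.110 by edgeR's quasi-likelihood test, and without any 1 library it ranged from 0.0268 (without shControl replicate 4) to 0.493 (without shControl replicate 1) in DESeq2. H2-DMb1 has a near-identical neighbor, H2-DMb2, which was not among the genes counted, and reads shared by the 2 genes could move its count.

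Ciita (chromosome 16, 10480014 to 10531064) was at the limit of detection. It was counted 1, 0 and 4 times in the shControl libraries and 1, 6, 2 and 1 times in the shBrca2 libraries. A count of 0 allows up to 3 counts in that library. The groups overlapped, and the 95% interval of the log2 fold change, -2.05 to 2.89, shows that no difference was detectable at this depth (DESeq2 adjusted p = 0.92). At such counts no common course of Ciita and its targets could be measured.

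**Figure D1:**
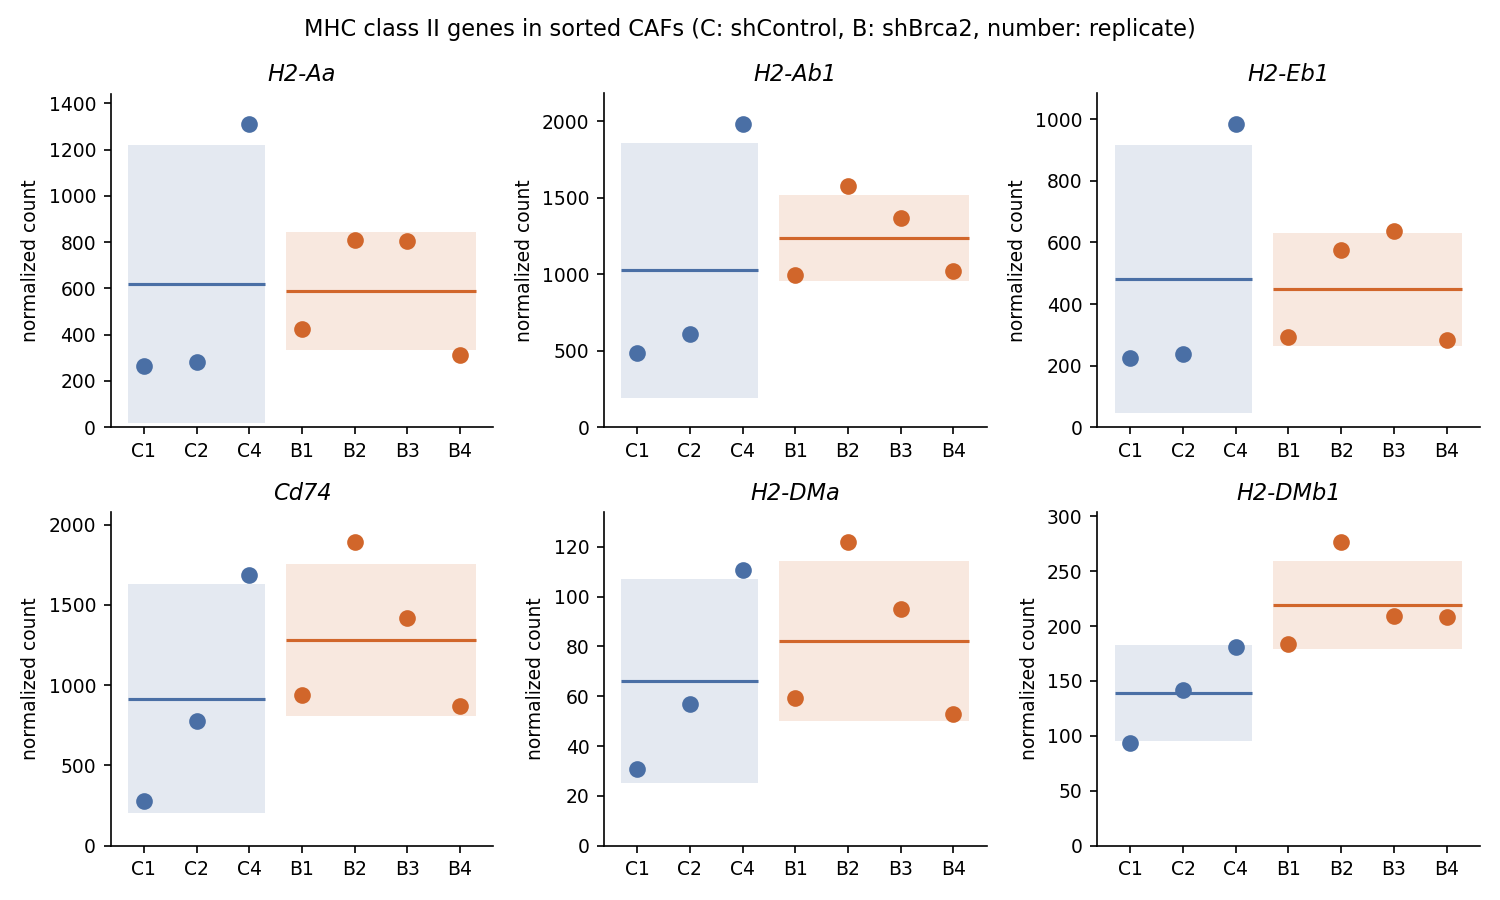
Normalized counts (vertical axes, from 0) of the 6 MHC class II genes with a mean over 5, in each library (horizontal axes; C shControl, B shBrca2, with the replicate number). Points are libraries, lines are group means and shaded bands are the mean ± SD. For H2-Aa, H2-Ab1 and H2-Eb1 the point C4 lies above every other library, at 1311, 1983 and 985, and C1 and C2 lie below every shBrca2 library.

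Counted over all members, 1 of 7 was called higher in shBrca2 CAFs and 0 lower by the DESeq2 likelihood ratio test. Of all genes tested, 3.77% were called higher, 5.27% lower and 9.04% in either direction. At an unadjusted p under 0.05 the count was also 1, and edgeR's quasi-likelihood test called 0 higher and 0 lower (of all genes, 3.63% and 5.11%), with 1 member at an unadjusted p under 0.05. The median log2 fold change was 0.32 over the members and 0.0080 over all genes.

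A single library decided these results. Without shControl replicate 4, which leaves 2 shControl libraries, 5 of the 7 members were called higher by DESeq2, where 3.15% of all genes were called higher and 3.41% lower. H2-Ab1 then was at 1.19 ± 0.24 on the log2 scale (DESeq2 adjusted p = 0.000248), and Cd74 at 1.28 ± 0.36 (DESeq2 adjusted p = 0.0226). H2-Aa was at 1.10 ± 0.33 (DESeq2 adjusted p = 0.0360) and H2-Eb1 at 0.95 ± 0.32 (DESeq2 adjusted p = 0.0785), so that both turned from a negative to a positive value. H2-DMb1 was at 0.91 ± 0.27. H2-DMa, at 0.93 ± 0.40, was not called (DESeq2 adjusted p = 0.237), and Ciita received no adjusted p. Without any 1 of the other 6 libraries, 0 of the 7 members were called by DESeq2, with 0 or 1 of them at an unadjusted p under 0.05. Nothing in the labels sets shControl replicate 4 apart, and it stayed in the comparison.

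**Figure D2:**
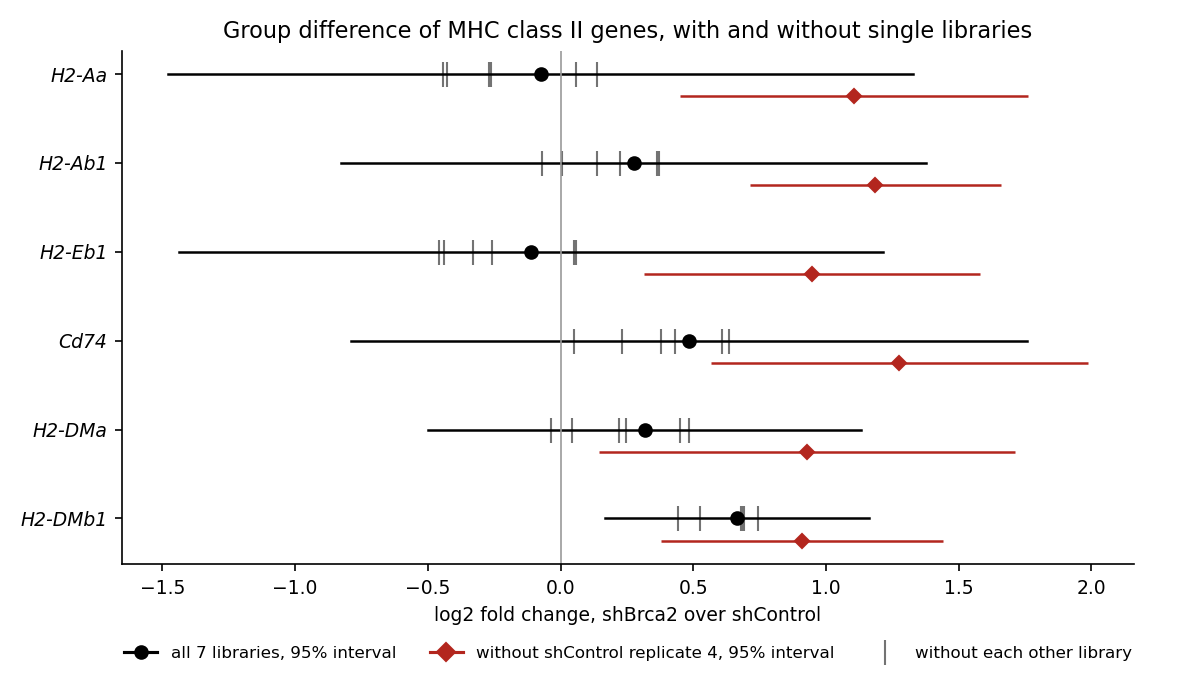
Log2 fold change of shBrca2 over shControl (horizontal axis) for 6 MHC class II genes (vertical axis). Black points with bars are the estimates from all 7 libraries with 95% intervals, red diamonds with bars those without shControl replicate 4, and gray ticks those without each other library. Black bars cross 0 for every gene but H2-DMb1, whereas the red diamonds lie between 0.91 and 1.28 and no red bar reaches 0.

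Most members moved together from library to library, H2-DMb1 least closely, as their distances from a mean course show below. Ciita had too few counts to judge. Compared as SD of log2(normalized count + 1) within the shControl group, the spread was 1.31 for H2-Aa, 1.09 for H2-Ab1, 1.21 for H2-Eb1, 1.30 for Cd74, 0.909 for H2-DMa and 0.474 for H2-DMb1. The median was 0.228 over the 6735 genes whose mean normalized count exceeded 50. Between 98.3% and 99.6% of those genes varied less than each of the first 5 members, and 88.2% varied less than H2-DMb1. In shBrca2 CAFs the members' spread ran from 0.249 to 0.682, against a median of 0.210.

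Within this spread, some pairs kept their ratio better than others. The count of H2-Eb1 per count of H2-Aa stayed between 0.692 and 0.903 over the 7 libraries, a 1.30-fold range, although H2-Aa itself ranged over 4.92-fold and H2-Eb1 over 4.39-fold. The ratio of H2-Aa to its own partner H2-Ab1 ranged over 2.14-fold, and that of Cd74 to H2-Aa over 2.66-fold. H2-Aa and H2-Eb1 share 118 exonic bases on opposite strands in GENCODE vM39 (GRCm39), and the strand setting of the counting is not given in the sources used here, so reads of the shared bases cannot be told apart. Of the other members, H2-DMa shares 510 exonic bases with Brd2, H2-DMb1 285 with Gm64535, Ciita 633 with Dexi and H2-Eb1 130 with Gm20513, each on the opposite strand, and Cd74 shares 88 with Mir5107 on the same strand.

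The genes whose course was most like that of the members were ranked. The course of a gene was its log2(normalized count + 1) less its mean over the 7 libraries, and likeness was the root mean square difference from the mean course of the 6 members with a mean over 50. Nkain4, a gene used as an apCAF marker, was the nearest of 6729 genes, at a difference of 0.177 on the log2 scale, where the median over those genes was 0.713. Nkain4 had 122, 162 and 578 normalized counts in shControl and 240, 402, 454 and 272 in shBrca2 CAFs, with the same libraries high and low as for the class II chains. It ranked first or second without each library in turn. The members themselves stood between 0.140 (H2-Ab1) and 0.400 (H2-DMb1) from the mean course, which includes them. After it came Rhbdl1, Dmkn, Hspb1, Fgf1, Nfkbid, Vit, Nrxn2, Trf and Sdc4, at differences from 0.278 to 0.353. Between 2 and 8 of the 10 genes stayed among the nearest 10 when 1 library was left out. The 7 libraries are few, and this likeness is a description.

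**Figure D3:**
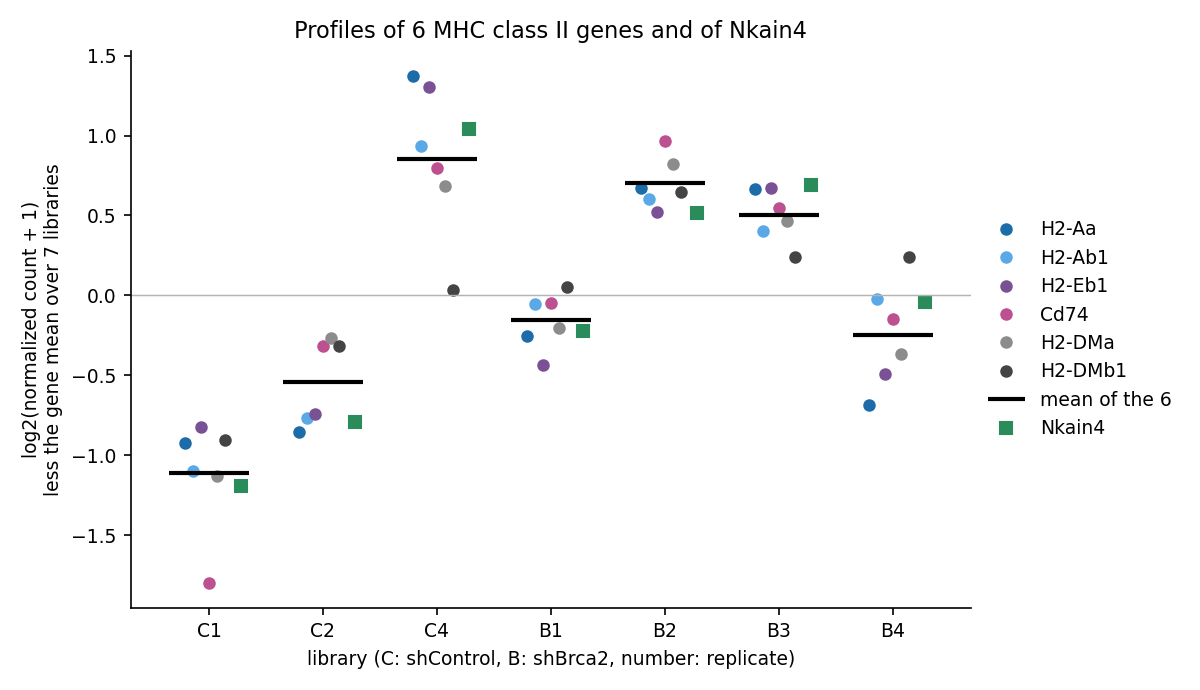
Log2(normalized count + 1) less the gene's mean over the 7 libraries (vertical axis), by library (horizontal axis; C shControl, B shBrca2, with the replicate number). Round points are the 6 MHC class II genes, black bars their mean and green squares Nkain4. The mean is lowest in C1, at -1.11, and highest in C4, at 0.86, and Nkain4 lies close to it in each library.

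Of the other apCAF markers, Slpi and Saa3 stood far from this course. Slpi, a secreted protease inhibitor, had 908, 3121 and 2486 normalized counts in shControl and 7612, 6156, 7007 and 6715 in shBrca2 CAFs. Its groups were apart, and it differed by 1.66 ± 0.32 on the log2 scale (DESeq2 adjusted p = 6.6e-05), a call kept under all 12 alternatives. Saa3, an acute-phase protein, was at 0.45 ± 0.28 (DESeq2 adjusted p = 0.43, and 0.000226 without shControl replicate 2, when it was called higher), and Irf5, an interferon regulatory factor, at 0.34 ± 0.41 (DESeq2 adjusted p = 0.76). In the ranking by likeness to the members Slpi stood at 6205 and Saa3 at 4342 of 6729. Nkain4 itself was at 0.25 ± 0.63 (DESeq2 adjusted p = 0.91, and 0.00184 without shControl replicate 4, when it was called higher). From all 7 libraries, 1 of the 4 markers was called (of all genes, 9.04%).

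Markers of other cells that could bring class II into the sort were summed in CPM, the count per 1000000 counts of the library. The 7 class II genes together made up 392, 582 and 1778 CPM in shControl and 914, 1503, 1383 and 865 CPM in shBrca2 CAFs. The 11 mesothelial markers counted (of 12) made up 333, 553 and 1010 CPM in shControl and 1178, 986, 1160 and 1180 CPM in shBrca2 CAFs. Both sums were lowest in shControl replicates 1 and 2, and in shControl replicate 4 the mesothelial sum was within the range of the shBrca2 libraries. That sum includes the 4 keratins Krt7, Krt8, Krt18 and Krt19, called higher as given below. Without these keratins, the summed CPM of the remaining mesothelial markers was highest in shControl replicate 4, only just above shBrca2 replicate 3. Upk3b, Upk1b and Lrrn4 were highest in shControl replicate 4, as the classical class II chains were, at 256, 404 and 484 normalized counts. Each of the other mesothelial markers was highest in a shBrca2 library. There were 1.05 to 1.76 class II counts per mesothelial count in shControl and 0.733 to 1.52 in shBrca2 CAFs, so these ranges overlapped.

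Among single mesothelial genes, Msln, the surface protein mesothelin, had 96.5, 397 and 519 normalized counts in shControl and 660, 558, 623 and 665 in shBrca2 CAFs (log2 fold change 0.89 ± 0.55, DESeq2 adjusted p = 0.44, and 0.0158 without shControl replicate 4). Wt1, a transcription factor of the mesothelium, was at 0.15 ± 0.21 (DESeq2 adjusted p = 0.80). Upk3b was at -0.40 ± 0.76 and Lrrn4 at -0.09 ± 0.70, and the other markers not called were between 0.15 and 0.97. In likeness to the members the mesothelial genes were spread widely, from rank 14 of 6729 for the uroplakin gene Upk1b, 15 for Lrrn4 and 64 for Wt1 to 1750 for Msln, 4805 for Krt7 and 5288 for Krt8. With 1 library left out, Upk1b ranked between 5 and 134 and Lrrn4 between 7 and 257. 4 of the 11 were called higher and 0 lower (of all genes, 3.77% and 5.27%). These 4 were all keratins of simple epithelia, which mesothelium shares: Krt8 by 1.58 ± 0.24, Krt18 by 1.18 ± 0.30, Krt7 by 1.16 ± 0.38 and Krt19 by 1.0 ± 0.36. The calls of Krt8 and Krt18 were kept under all 12 alternatives, that of Krt7 was lost without shControl replicate 1 or shBrca2 replicate 1, and that of Krt19 without any of 5 libraries, namely shControl replicates 1 and 2 and shBrca2 replicates 1, 3 and 4, and by edgeR (adjusted p = 0.135). The part of mesothelial cells in the class II values was not tested.

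The 4 pan-leukocyte markers counted (of 6) were near 0, between 7.35 and 11.9 CPM in shControl and between 3.16 and 10.7 CPM in shBrca2 CAFs. The most abundant were Cd52 with raw counts from 2 to 19, Coro1a from 3 to 16 and Laptm5 from 0 to 14. Ptprc, which encodes CD45 and was gated against, and Cd53 were not among the genes counted. The lowest ratio was 37.5 class II counts per pan-leukocyte count, in shControl replicate 1, and in shControl replicate 4 there were 150. The highest was 438, in shBrca2 replicate 3, where these markers had only 6 raw counts together. Of the dendritic cell markers only Zbtb46 and Batf3 of 8 were counted, and their sum was between 4.90 and 11.5 CPM, while the defining genes Flt3, Itgax, Xcr1 and Clec9a were not. Of 6 B cell markers only Cd79b was counted, at most 2.49 CPM, and Cd79a and Ms4a1 were not. The part of leukocyte RNA in the class II values was not tested.

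The 9 macrophage markers counted (of 11) made up between 93.0 and 113 CPM in shControl and between 167 and 191 CPM in shBrca2 CAFs, so that these sums did not overlap. 3 of the 9 were called higher and 0 lower (of all genes, 3.77% and 5.27%). They were the receptor gene Csf1r by 1.15 ± 0.22, the complement gene C1qa by 1.65 ± 0.63 and the lipopolysaccharide receptor gene Cd14 by 1.21 ± 0.38. The call of Csf1r was kept under all 12 alternatives, that of Cd14 was lost without shControl replicate 1, and that of C1qa under 7 of 11, namely edgeR and without each library but shBrca2 replicate 3. Of the 6 not called, Lyz2 was at -0.26 ± 0.35 and Cd68 at -0.32 ± 0.25, and the other 4 were between 0.31 and 0.87. Of the 9, only Csf1r and Cd14 did not overlap between the groups, where 17.1% of all genes did not. Csf1r made up 24.6 to 41.3 CPM in shControl and 68.8 to 84.3 CPM in shBrca2 CAFs. For Cd14 it was 8.50 to 37.0 CPM and 42.1 to 64.3 CPM. Without Csf1r and Cd14, the summed CPM of the remaining macrophage markers overlapped between the groups. Adgre1 and Fcgr1 were not among the genes counted. shControl replicate 4, with the most class II, had 113 CPM of macrophage markers, near shControl replicates 1 and 2. The part of macrophage RNA in the class II values was not tested.

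The 5 endothelial markers counted (of 8) summed to between 17.0 and 40.3 CPM in shControl and between 34.8 and 42.3 CPM in shBrca2 CAFs, and the 4 epithelial ones (of 6) to between 9.47 and 14.7 and between 13.2 and 34.8 CPM. Of the most abundant endothelial markers Kdr was at 0.51 ± 0.33, Flt4 at 0.55 ± 0.46 and Lyve1 at -0.42 ± 0.74, and Cdh5 was not among the genes counted. Without shControl replicate 4, Kdr was called higher (DESeq2 adjusted p = 0.0532). Pecam1, which encodes CD31 and was gated against, had raw counts of 6, 14 and 2 in shControl and 2, 1, 0 and 0 in shBrca2 CAFs. Its normalized counts did not overlap between the groups and differed by -3.60 ± 1.22 on the log2 scale (adjusted p = 0.031 by DESeq2), but the mean of 3.87 was under the minimum for a call. Vwf, at -1.11 ± 0.79 (DESeq2 adjusted p = 0.52), did not overlap between the groups either. Of the epithelial ones Muc1 was at 0.01 ± 0.36, Cdh1 at 1.59 ± 0.71 and Krt20 at 2.12 ± 0.88, with 0 of these 3 called by DESeq2 and 2 of them, Cdh1 and Krt20, at an unadjusted p under 0.05. Krt20 was called higher without shControl replicate 4 or shBrca2 replicate 3, and Epcam, gated against, was not among the genes counted. Of the epithelial markers Elf3, an epithelial transcription factor, was called higher, from raw counts of 3, 0 and 0 in shControl and 11, 7, 2 and 23 in shBrca2 CAFs. That call was lost without shControl replicate 2 or 4, and without shBrca2 replicate 4 Elf3 received no adjusted p. The 2 fibroblastic reticular markers counted (of 3) summed to 112 CPM in shControl replicate 4 and to between 22.6 and 41.5 CPM in the other libraries. Most of this was Cxcl13, a B cell chemokine, with 387 normalized counts there and 62.0 to 119 elsewhere, while Ccl19 had 5.18 to 21.5 in all 7. The 8 fibroblast markers made up between 21254 and 22294 CPM in shControl and between 19553 and 20328 CPM in shBrca2 CAFs. Col1a1, the other chain of type I collagen, was at -0.04 ± 0.24. The matrix proteoglycan genes Dcn (-0.77 ± 0.28) and Lum (-1.18 ± 0.35) were called lower and the other 6 not (5.27% of all genes were called lower). The call of Lum was lost without shControl replicate 1, and that of Dcn without shControl replicate 1 or 4 or shBrca2 replicate 1 or 4 and by edgeR (adjusted p = 0.120).

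**Figure D4:**
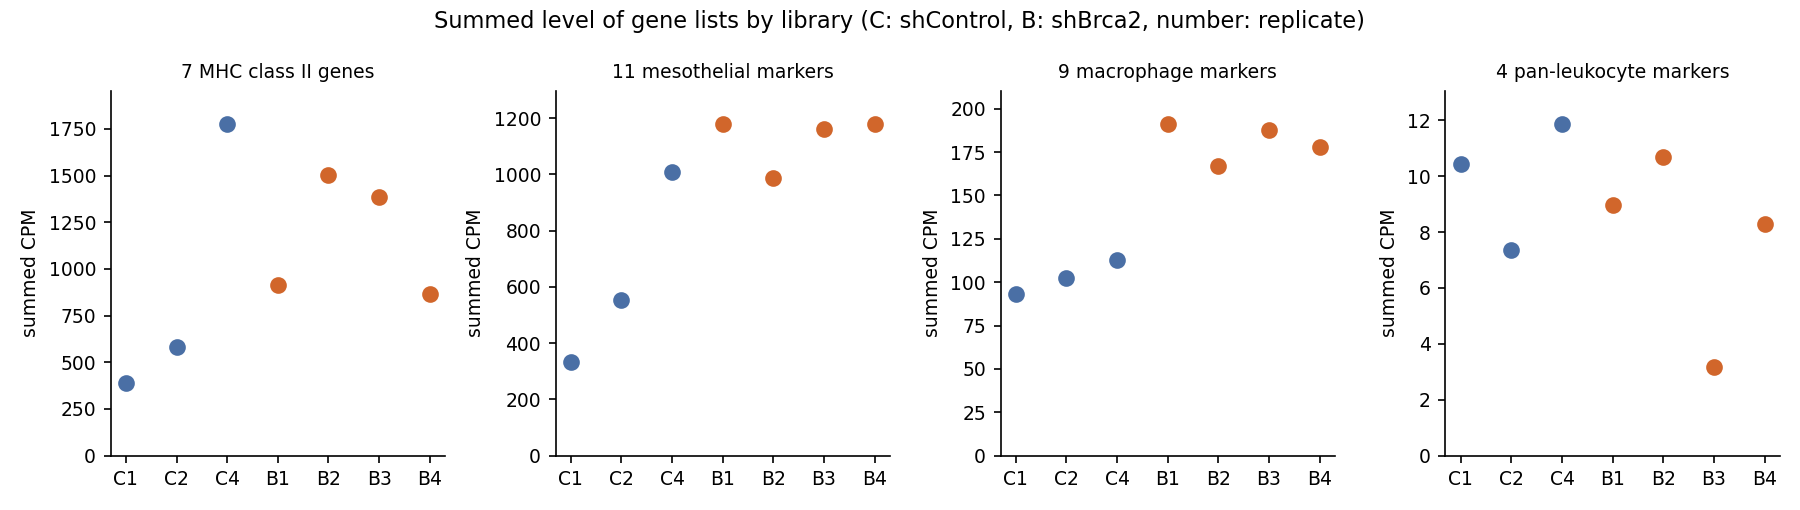
Summed CPM (vertical axes, from 0) of the 7 MHC class II genes and of the mesothelial, macrophage and pan-leukocyte markers, by library (horizontal axes; C shControl, B shBrca2, with the replicate number). Points are libraries. The class II sum is highest in C4, at 1778 CPM, where the macrophage sum is 113 CPM and the mesothelial sum 1010 CPM. The mesothelial sum includes 4 keratins, which were called higher in shBrca2 CAFs.

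The rest of the pathway was examined by role. Of 38 further genes listed, 27 were counted, and 3 of these were called higher and 4 lower (9.04% of all genes were called in either direction). Their median log2 fold change was -0.15. The further class II chains H2-Oa, H2-Ob, H2-DMb2, H2-Eb2, H2-Ea and H2-Ea-ps were not among the genes counted. Of the factors that bind the X and Y boxes, 6 of 7 were counted (not Creb1) and 0 were called by DESeq2. The RFX subunits were at -0.26 ± 0.34 for Rfx5, -0.13 ± 0.42 for Rfxap and -0.06 ± 0.31 for Rfxank, and the NF-Y subunits at 0.35 ± 0.30 for Nfya, 0.34 ± 0.32 for Nfyb and -0.04 ± 0.19 for Nfyc. Their unadjusted p ranged from 0.25 to 0.82, so that 0 were under 0.05.

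The endosomal enzymes that trim CD74 and cut antigen differed in both directions. All 7 were counted, 2 were called lower and 1 higher (of all genes, 5.27% and 3.77%). Ctsl, the protease that trims the invariant chain in thymic epithelium, had 57.2, 22.8 and 57.4 normalized counts in shControl and 11.2, 21, 25.9 and 20.3 in shBrca2 CAFs. The groups overlapped through shControl replicate 2, and the log2 fold change was -1.27 ± 0.41 (DESeq2 adjusted p = 0.032). Ctsb, another lysosomal cysteine protease, was lower by -0.64 ± 0.21 (DESeq2 adjusted p = 0.041), with 230 to 362 normalized counts in shControl and 166 to 217 in shBrca2 CAFs. Lgmn, an asparaginyl endopeptidase that starts the cleavage of antigens and CD74, went the other way.

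Lgmn had 723, 786 and 920 normalized counts in shControl and 1145, 935, 1292 and 1269 in shBrca2 CAFs. These groups were apart, and the log2 fold change was 0.52 ± 0.17 (DESeq2 adjusted p = 0.048). Ctsd, an aspartic protease, did not overlap between the groups either, but its log2 fold change of -0.44 ± 0.16 was under the size required (DESeq2 adjusted p = 0.061), and it was called lower without shControl replicate 1 or shBrca2 replicate 3. Ctss, the enzyme that trims CD74 in dendritic cells and B cells, was barely detected, with raw counts from 1 to 12. Ifi30, a thiol reductase that unfolds antigens, was at 0.35 ± 0.17 (DESeq2 adjusted p = 0.25), and Sppl2a, which clears the last fragment of CD74, at -0.29 ± 0.29 (DESeq2 adjusted p = 0.69). The calls of Ctsl, Ctsb and Lgmn were lost without shControl replicate 1 and without shBrca2 replicate 1. That of Ctsl was also lost without shControl replicate 4, that of Ctsb without shControl replicate 4 or shBrca2 replicate 4, and that of Lgmn without shControl replicate 2 or shBrca2 replicate 3 or 4.

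Of the interferon gamma signal, 7 of 8 genes were counted, 2 were called lower and 0 higher (of all genes, 5.27% and 3.77%). Socs1, an inhibitor of JAK kinases that is itself induced by interferon, had 429, 362 and 525 normalized counts in shControl and 122, 237, 223 and 165 in shBrca2 CAFs. Every shBrca2 library was below every shControl library, the log2 fold change was -1.24 ± 0.25 (DESeq2 adjusted p = 6.9e-05), and this call was kept under all 12 alternatives. Ifngr1, the ligand-binding chain of the interferon gamma receptor, had 163 to 268 normalized counts in shControl and 126 to 149 in shBrca2 CAFs (log2 fold change -0.62 ± 0.21, DESeq2 adjusted p = 0.050), a call kept without shControl replicate 2 and lost without any other library.

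Jak1, the kinase on that chain, was at -0.48 ± 0.18 (DESeq2 adjusted p = 0.081), under the size required but called lower without shControl replicate 2, and Jak2 at 0.38 ± 0.16 (DESeq2 adjusted p = 0.18). The groups did not overlap for either kinase. Irf1, a transcription factor induced by interferon gamma and an activator of Ciita, was at -0.37 ± 0.29, and the receptor chain Ifngr2 at -0.15 ± 0.20. Neither passed the test. Ifng itself was not among the genes counted.

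Marchf8, a ubiquitin ligase that removes class II from the surface, was at -0.32 ± 0.21 (DESeq2 adjusted p = 0.47), and Marchf1 and Cd83, which also act on its turnover, were not counted. Of 4 co-stimulatory genes 3 were counted (not Cd86), at low levels, and 0 were called by DESeq2, with 0 at an unadjusted p under 0.05: Cd80 had raw counts from 6 to 28, Cd40 from 2 to 9 and Icosl from 0 to 44. Of the 3 ligands and partners of CD74, 2 were called higher and 0 lower (of all genes, 3.77% and 5.27%). Mif, the cytokine that binds CD74, had 846, 1605 and 687 normalized counts in shControl and 1990, 2266, 1437 and 2144 in shBrca2 CAFs. The groups overlapped through shControl replicate 2, and the log2 fold change was 0.91 ± 0.28 (DESeq2 adjusted p = 0.029), a call lost without shControl replicate 1 or 4.

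Cd44, the signaling partner of CD74 and a hyaluronan receptor, had 175, 202 and 212 normalized counts in shControl and 350, 360, 297 and 295 in shBrca2 CAFs. Its groups were apart, and the log2 fold change of 0.74 ± 0.17 (DESeq2 adjusted p = 0.0012) was called under all 12 alternatives. Ddt, a relative of Mif, was at -0.46 ± 0.22 (DESeq2 adjusted p = 0.22, and 0.0958 without shControl replicate 2, when it was called lower).

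**Figure D5:**
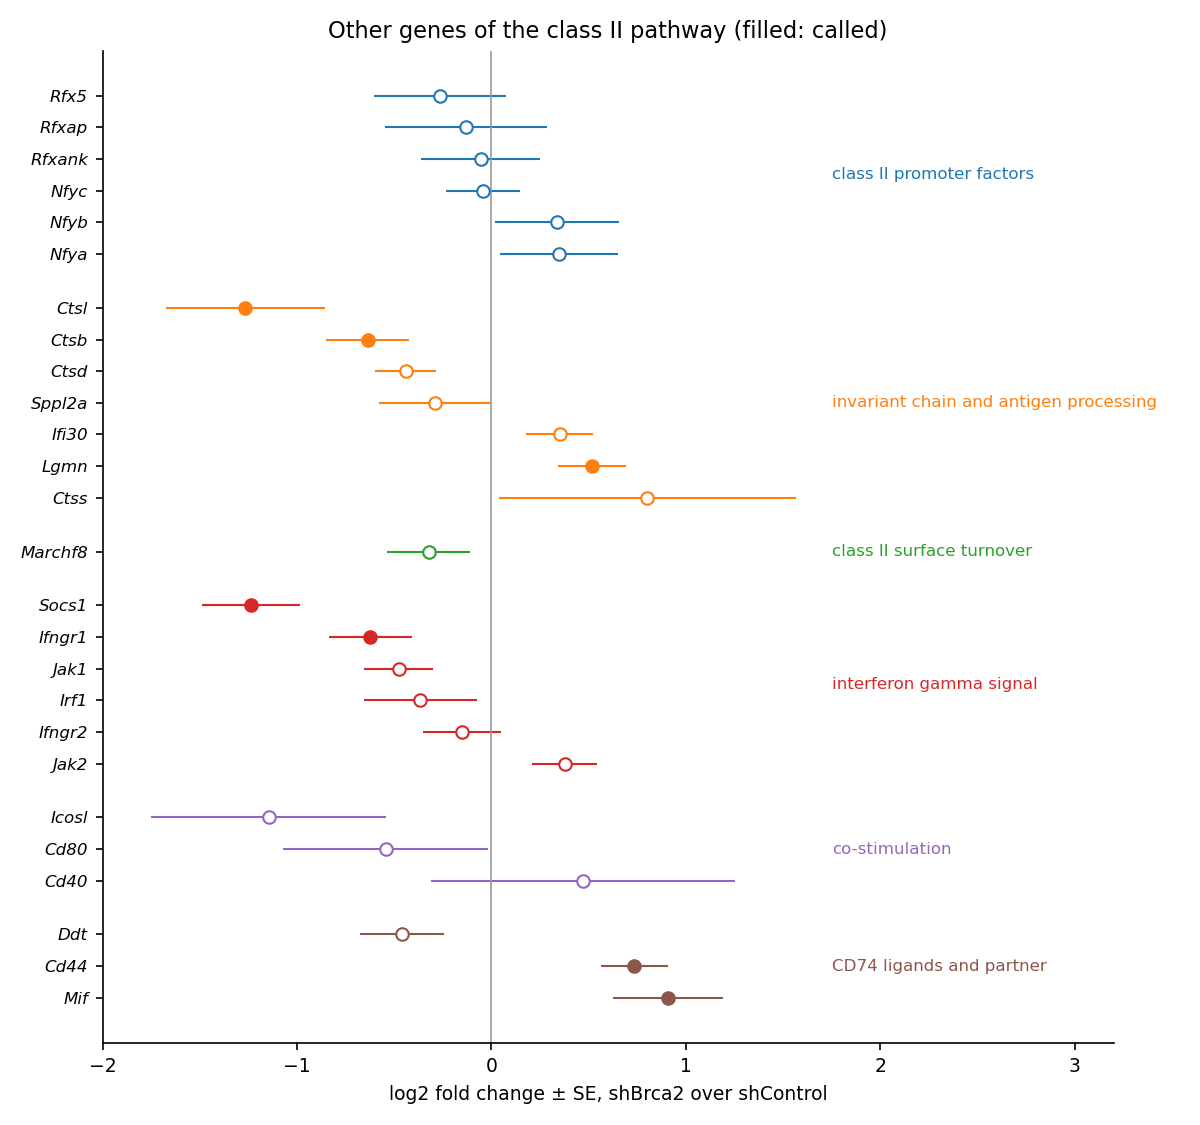
Log2 fold change of shBrca2 over shControl ± standard error (horizontal axis) of 26 further genes of the class II pathway (vertical axis), colored and grouped by role. Filled points were called and open points were not. The lowest called points are Ctsl, at -1.27, and Socs1, at -1.24, the highest is Mif, at 0.91, and the 6 promoter factors lie between -0.26 and 0.35.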

How the data were processed

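CAFs from 3 shControl and 4 shBrca2 tumors were compared. The authors deposited raw counts per gene symbol, 1 column per library. The submitters' processing notes name bcl2fastq, cutadapt, STAR 2.4.2a, HTSeq, DESeq2 and mm10. Poly(A) RNA was captured on oligo(dT) beads and its 3′ ends sequenced (a MARS-seq variant), so counts of different genes were set side by side only as ratios or sums within a library, not as levels per length. Strand setting and molecular barcodes are not given in the sources used here, and counts were treated as reads. Every listed gene has a count of 6 or more in some library.

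The study's test was fitted on the whole table: the DESeq2 1.42.0 likelihood ratio test (R 4.3.3) with median-of-ratios size factors, no covariate, and calls at adjusted p under 0.1, absolute log2 fold change over 0.5 and mean normalized count over 5. Fold changes are unshrunken, and their intervals are the estimate ± the normal quantile times the standard error. Alternatives were edgeR 4.0.16 (quasi-likelihood, TMM), DESeq2's Wald test, TMM size factors, a filter of 10 counts in 3 libraries, a replicate block, and each library left out. The script was tested on simulated data.

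The members, lists and motifs were chosen with earlier results of these data known. Named were all members, pathway lists, called markers, the 3 most abundant of each marker list, defining markers not counted, and the 10 genes of nearest course (pseudocount 1). Genes named outside that rule (Brca2, Irf5, Vwf, Pecam1, Lrrn4, Upk1b, Upk3b, Pdpn, Lyz2 and those sharing exonic bases with a member) were added after their values were seen. 1 listed gene was counted in the list totals but is not reported here by name or value. All 7 members were matched by symbol to RefSeq (GRCm38.p6) for positions. Depth ran from 1898679 to 5990579 counts, and the limit for a count of 0 covers counting error only.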

Additional observations from a re-analysis of the deposited data

Results flagged for a closer look

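In the 4 shBrca2 libraries, 1 library stood far from the other 3 for 5 of the genes examined, by Dixon's criterion on normalized counts. Rfx5 had 18.3 in replicate 4, against 23.2 to 24.2 in the others. Rfxank had 50.1 in replicate 3, against 32.6 to 34.6. Ifngr2 had 276 in replicate 1, against 346 to 359. The mesothelial gene Upk3b had 178 in replicate 3, against 57.7 to 73.2. Sdc4, a heparan sulfate proteoglycan gene near the class II course, had 997 in replicate 3, against 691 to 709. Chance flags about 1 in 20 groups, and 3 of the 5 values come from shBrca2 replicate 3, the library with the fewest counts (1898679). None of the 7 class II members was singled out this way, and groups of 3, such as shControl, were not examined, so that shControl replicate 4 could not be.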

How the results depend on the processing

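DESeq2's Wald test and the low-count filter left the count of class II members called higher at 1. It was 0 with edgeR, 0 with TMM size factors and 0 with the replicate block. With 1 library left out it ranged from 0 to 5. All genes called higher numbered 481 and ranged from 261 to 610, those called lower numbered 673 and ranged from 354 to 695, and pathway genes called numbered 7 and ranged from 3 to 8. The replicate numbers did not pair the libraries (correlations of deviations of same-numbered libraries -0.13, -0.17 and -0.18), so the replicate block is given as a value alone: 211 genes higher, 280 lower, 3 pathway genes, H2-Aa turned to 0.12, Col1a1 turned to 0.12 and H2-DMb1 at an adjusted p of 0.251 by DESeq2. Of the 7 members and 52 other genes refitted, log2 fold changes that changed sign with 1 library left out were those of H2-Aa (-0.44 to 1.10), H2-Ab1 (-0.069 to 1.19), H2-Eb1 (-0.46 to 0.95), H2-DMa (-0.037 to 0.93), Ciita (-0.10 to 2.11), Nkain4 (-0.12 to 1.27), Rfxank (-0.20 to 0.056), Ifngr2 (-0.31 to 0.0085), Cd80 (-0.86 to 0.023), Col1a1 (-0.24 to 0.26), Muc1 (-0.16 to 0.34), Lyve1 (-0.79 to 0.16) and Nfyc (-0.10 to 0.0019). The ranking of Nkain4 with each library left out was chosen after seeing the data. The cause of each change was not tested. Of the 83 alternative values for members, 10 changed direction, 4 gained a call and 9 lost one. Of the 618 for the 52 other genes, 16 changed direction, 10 gained a call, 50 lost one, and 3 of called genes had no adjusted p and were left out. A value can be in more than 1 of these counts. Ciita, Ctss, Cd40 and the pan-leukocyte markers had few counts.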
